A study of Mus musculus with 6 samples.

Results

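The genes described here are 10 feedback genes and targets of WNT signalling, Axin2, Lgr4, Lgr5, Rnf43, Znrf3, Nkd1, Lef1, Tcf7, Notum and Lect2. They were taken by gene symbol, and each had a row in all 6 count tables, so they are 10 of the 20570 symbols that the tables share. The tables hold bulk RNA-seq of cultured liver progenitor-like cells (LPCs) from mouse, in 3 groups of 2 libraries. Every group was C57BL/6, was labelled 6 to 8 weeks of age and was kept in the same culture medium, TEM (Transition and Expansion Medium). The Hep_LPCs group was started from purified hepatocytes, from ROSA26tdTomato mice given AAV8-TBG-Cre, a virus in which a hepatocyte promoter drives Cre. The NPC_LPCs group was started from liver non-parenchymal cells, that is, not hepatocytes, from AlbCreERT/R26GFP mice, in which the albumin promoter drives an inducible Cre. Mice of both of these groups are given as 8 weeks old in the growth protocol. Bec_LPCs came from pieces of intrahepatic bile duct of wild-type mice, grown in matrigel for 1 to 2 passages and sorted, and the series describes them as Epcam-positive. Cell source, mouse line, virus, culture and sort therefore cannot be told apart between the groups. The labels do not say whether the libraries of a group came from separate animals or cultures, so every p-value here reflects the spread between libraries alone, which may be technical in part.

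WNT ligands bind Frizzled receptors with the co-receptors Lrp5 and Lrp6, which stops the destruction of beta-catenin and lets it act in the nucleus with the DNA-binding proteins of the TCF/LEF family. R-spondins strengthen the signal by binding Lgr4, Lgr5 or Lgr6, which takes the ubiquitin ligases Rnf43 and Znrf3 off the cell surface, where they otherwise remove Frizzled. Several genes switched on by the pathway dampen it again, among them Axin2, Nkd1, Notum, Rnf43 and Znrf3. In the liver the pathway is known for its activity in hepatocytes around the central vein and for the growth of liver progenitors and organoids in culture.

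RefSeq promoter sequences (GRCm38.p6, the assembly also called mm10) were at hand for 7 of the 10 genes, in 12 start-site windows. The 250 bases before the start are shown for Lect2, which had the largest fold between group means of the 8 genes with enough reads to test, and for Axin2, the standard readout of the pathway. Lect2 lies on the minus strand, with its window at chr13:56548539-56548788, and Axin2 on the plus strand, with its window at chr11:108920099-108920348. Each is written 5′ to 3′ along the gene, and capitals mark matches on either strand to any of 4 TCF/LEF motifs. These are CTTTGAT with its variant CTTTGAA, and CTTTGTA with its variant CTTTGTT.
Lect2: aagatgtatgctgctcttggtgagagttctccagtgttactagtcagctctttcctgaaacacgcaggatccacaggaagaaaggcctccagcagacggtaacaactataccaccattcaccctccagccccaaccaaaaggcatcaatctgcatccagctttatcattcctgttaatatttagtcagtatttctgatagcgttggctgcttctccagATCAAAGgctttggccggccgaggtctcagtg
Axin2: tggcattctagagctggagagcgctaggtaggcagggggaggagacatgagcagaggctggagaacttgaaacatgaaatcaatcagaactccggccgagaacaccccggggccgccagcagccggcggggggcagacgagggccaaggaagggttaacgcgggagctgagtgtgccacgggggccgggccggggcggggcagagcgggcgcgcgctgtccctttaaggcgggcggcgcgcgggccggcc
The Lect2 window held 1 match, CTTTGAT read on the opposite strand, whose first base lay 32 bases before the start. The Axin2 window held none. Of the 12 windows 2 held a match, the other being an internal start of Lef1 with CTTTGTA, and 14.8% of all 32851 RefSeq windows of this length held a match to any of the 4 motifs. CTTTGAT alone was in 3.21% of all windows. A match is a description of the letters and was not tested for binding.

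Total counts per library were 17575998 to 22985844. Levels are CPM, the reads of a gene relative to a library size scaled by the trimmed mean of M values (TMM) over all 6 libraries, and 1 read is worth 0.0422 to 0.0593 CPM. Fold changes are log2 values ± SE from edgeR's quasi-likelihood test, where the SE is the fold change divided by the root of the test's F statistic. A gene is called at a Benjamini-Hochberg adjusted p under 0.05 over all genes tested. The Bec_LPCs replicates differed less than those of the other groups, with a median absolute log2 ratio over 12866 genes of 0.10 against 0.35 in NPC_LPCs and 0.41 in Hep_LPCs. The Y-linked Ddx3y stood at 0.0593 CPM in Hep_LPCs replicate 2 and at 60.4 to 102 CPM in the other 5 libraries, so the Hep_LPCs libraries are not repeats of 1 RNA sample. Defining markers of several liver cell types were at 0 reads in every library, namely Tat and Cyp3a11 of hepatocytes, Lrat of stellate cells, Clec4g of endothelium, Clec4f of Kupffer cells, and Cd3e, Cd8a and Nkg7 of lymphocytes. Other markers of these lists had reads. The 6 endothelial markers summed to 2.19 to 3.71 CPM in NPC_LPCs, 2.66 to 3.04 CPM in Bec_LPCs and 6.29 to 7.55 CPM in Hep_LPCs, most of the last from Kdr, and the 5 lymphocyte and leukocyte markers to 0.231 to 1.84 CPM over the 6 libraries. Alb, the albumin gene, was at 0.116 to 2.40 CPM. The summed level of 7 stellate and fibroblast markers was 178 to 212 CPM in Bec_LPCs, 4.16 to 17.2 CPM in NPC_LPCs and 9.02 to 14.4 CPM in Hep_LPCs, and that of 8 hepatocyte markers 105 to 128, 29.2 to 51.4 and 257 to 265 CPM, most of it Hnf4a. In bulk libraries fewer cells that express a gene and less of its RNA per cell cannot be told apart.

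**Figure D1:**
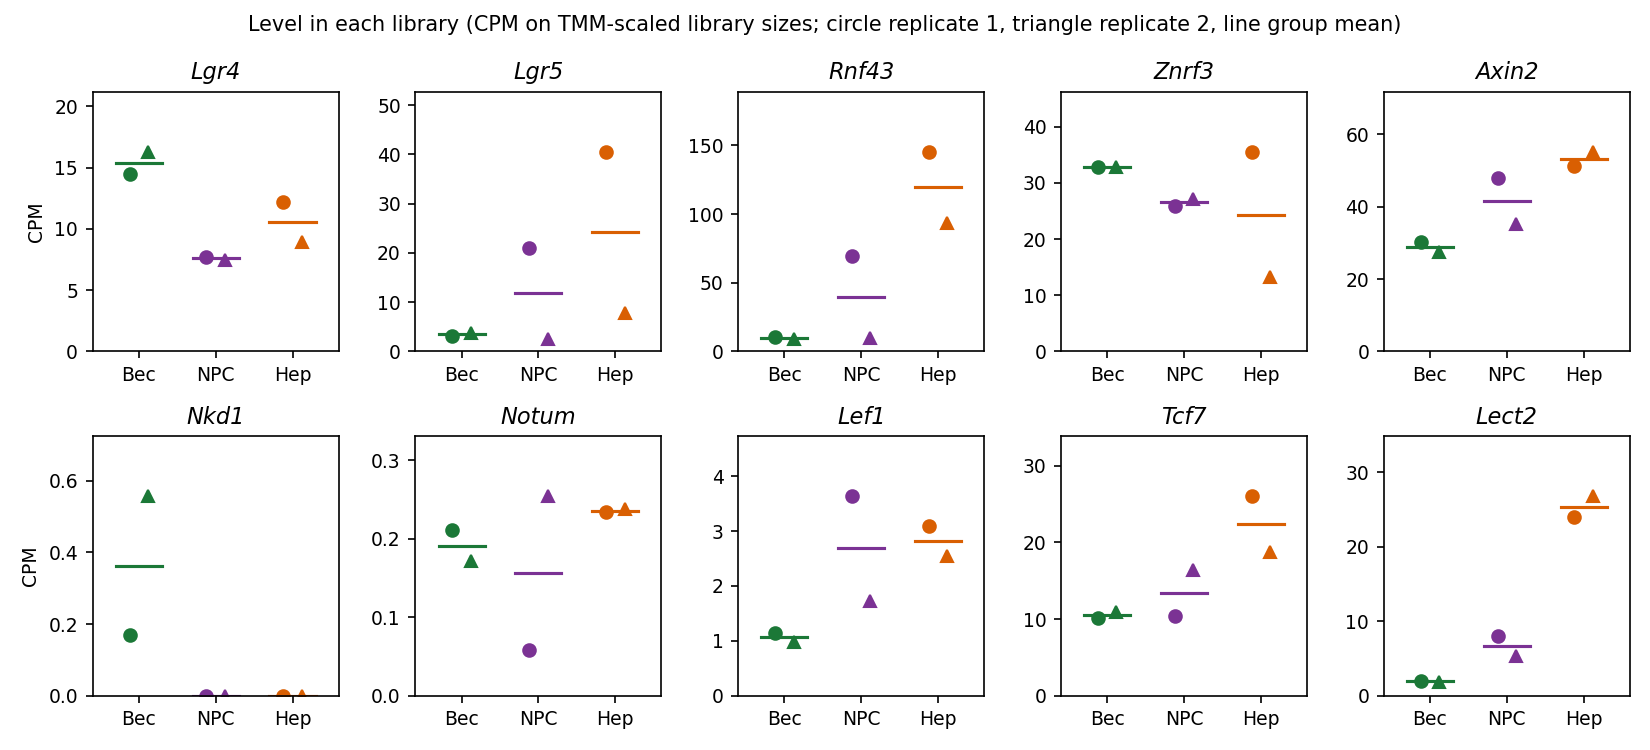
Level of each of the 10 genes in every library. The vertical axes give CPM from 0 on a scale of their own for each gene, circles are replicate 1, triangles replicate 2 and lines the mean of the 2 libraries. Lect2 and Axin2 stand in 3 steps with no overlap, while Lgr5 and Rnf43 differ widely between the NPC_LPCs replicates.

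Lect2 showed the widest gap between groups. It encodes leukocyte cell-derived chemotaxin-2, a protein that hepatocytes secrete into blood and a target of beta-catenin in liver (chromosome 13, 56542464 to 56548502 in mm10, minus strand, protein-coding). Lect2 was at 24.0 and 26.8 CPM in Hep_LPCs (replicates 1 and 2, the order used throughout), 8.08 and 5.34 CPM in NPC_LPCs, and 1.98 and 1.89 CPM in Bec_LPCs. The groups stood in the order Hep_LPCs, NPC_LPCs, Bec_LPCs with no overlap between neighbours. Lect2 fell in Bec_LPCs against Hep_LPCs (log2 fold change -3.71 ± 0.33, edgeR adjusted p = 0.00235) and against NPC_LPCs (-1.79 ± 0.31, 0.0256). The call against Hep_LPCs held with each of the 6 libraries left out in turn. The call against NPC_LPCs was lost without Bec_LPCs replicate 1 (edgeR adjusted p = 0.222) and without Bec_LPCs replicate 2 (0.246), with fold changes of -1.84 and -1.75. Between Hep_LPCs and NPC_LPCs the log2 fold change was 1.90 ± 0.37, which was not called (edgeR adjusted p = 0.0778). That difference was called by DESeq2 (1.91, adjusted p = 4.32e-04), in a fit of all 6 libraries (1.92, adjusted p = 0.0257), with no low-count filter (1.90, 0.0364) and on the deposited FPKM with limma (1.66 on the log2(FPKM + 1) scale, 0.0389), but not by limma-voom. The summed hepatocyte markers, mostly Hnf4a, moved with Lect2 in being highest in Hep_LPCs, but stood higher in Bec_LPCs than in NPC_LPCs, where Lect2 was lower in Bec_LPCs. Of the secreted markers Apoa1 was also highest in Hep_LPCs, while Alb and Ttr overlapped between Hep_LPCs and Bec_LPCs. The part of hepatocyte-type cells in the Lect2 levels was not tested.

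Rnf43 and Znrf3, the ubiquitin ligases that remove Frizzled receptors, did not move alike. Rnf43 (chromosome 11, 87662722 to 87735539, plus strand) was at 145 and 93.9 CPM in Hep_LPCs, 69.8 and 9.81 CPM in NPC_LPCs, and 10.8 and 9.22 CPM in Bec_LPCs. Hep_LPCs stood above both other groups, while NPC_LPCs replicate 2 lay within the range of Bec_LPCs. Rnf43 fell in Bec_LPCs against Hep_LPCs (-3.58 ± 0.89, edgeR adjusted p = 0.0295). This call was lost without either Bec_LPCs library (edgeR adjusted p = 0.180 and 0.192) and without Hep_LPCs replicate 1 (0.0976) or replicate 2 (0.0621), at fold changes of -3.86 to -3.23.
Rnf43 was not called in Bec_LPCs against NPC_LPCs (-1.99 ± 0.84, edgeR adjusted p = 0.171) or in Hep_LPCs against NPC_LPCs (1.58 ± 0.88, 0.358). DESeq2 called the first (-2.0, adjusted p = 0.0291). Both moved with the NPC_LPCs replicate left out. Without NPC_LPCs replicate 1 the second gave 3.59 with edgeR adjusted p = 0.0143 and the first -0.02 (0.977), and without NPC_LPCs replicate 2 the first gave -2.80 with edgeR adjusted p = 0.0219 and the second 0.77 (0.410), in each case with the lone NPC_LPCs library assumed to vary like the other groups.
Znrf3 (chromosome 11, 5276324 to 5444847, minus strand) was at 35.5 and 13.2 CPM in Hep_LPCs, 25.9 and 27.1 CPM in NPC_LPCs, and 32.7 and 32.8 CPM in Bec_LPCs. The Hep_LPCs libraries spanned both other groups, and no comparison of Znrf3 was called (edgeR adjusted p = 0.478 to 0.893). Without Hep_LPCs replicate 1 Znrf3 was called higher in Bec_LPCs than in Hep_LPCs (1.31, edgeR adjusted p = 0.0167), and without Hep_LPCs replicate 2 it stood at -0.12 (edgeR adjusted p = 0.592), with the lone Hep_LPCs library assumed to vary like the other groups.

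Levels of different genes were set side by side only per kilobase of exonic length (CPM per kb). On that scale Rnf43 stood above Znrf3 in Hep_LPCs, at 22.2 against 4.50 CPM per kb in replicate 1 and 14.3 against 1.67 in replicate 2, and in NPC_LPCs replicate 1, at 10.6 against 3.28. The order was the opposite in NPC_LPCs replicate 2, with 1.5 CPM per kb of Rnf43 against 3.43 of Znrf3, and in Bec_LPCs, with 1.65 against 4.15 and 1.41 against 4.16. The FPKM that the authors deposited for the NPC_LPCs and Hep_LPCs tables gave the same order of the ligases in those 4 libraries, with Rnf43 at 16.5, 10.9, 7.89 and 1.12 FPKM and Znrf3 at 3.22, 1.25, 2.41 and 2.71 FPKM (Hep_LPCs, then NPC_LPCs). Among the 28 pairs of the 8 genes that passed the count filter, Rnf43 and Znrf3 had the patterns least alike over the 6 libraries, with a root-mean-square difference of 1.90 between their centred log2 levels. Lgr4 and Rnf43 (1.86) and Znrf3 and Lect2 (1.80) came close to that value. This measure grows with the range of a gene, which was wide for Rnf43 and Lect2. The pairs most alike were Axin2 and Lef1 (0.34) and Axin2 and Tcf7 (0.39).

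Lgr5 and Lgr4, receptors of R-spondins, also differed in pattern. Lgr5 marks WNT-responsive stem cells of the gut and cells of growing liver organoids (chromosome 10, 115450311 to 115587780, minus strand). Lgr5 was at 40.5 and 7.77 CPM in Hep_LPCs, 21 and 2.49 CPM in NPC_LPCs, and 3.17 and 3.82 CPM in Bec_LPCs. Both Hep_LPCs libraries stood above both Bec_LPCs libraries, and NPC_LPCs overlapped with each of the other groups.
No comparison of Lgr5 was called. Its log2 fold change was -2.79 ± 1.15 in Bec_LPCs against Hep_LPCs (edgeR adjusted p = 0.110), -1.75 ± 1.12 in Bec_LPCs against NPC_LPCs (0.335) and 1.03 ± 1.17 in Hep_LPCs against NPC_LPCs (0.642). DESeq2 called the first (-2.80, adjusted p = 0.0127), which with edgeR stood at -1.15 (0.497) without Hep_LPCs replicate 1 and -3.53 (0.0847) without Hep_LPCs replicate 2. The sign of the second turned without NPC_LPCs replicate 1 (0.44) and that of the third without Hep_LPCs replicate 1 (-0.59).
Lgr4 (chromosome 2, 109917647 to 110014257, plus strand) was at 14.5 and 16.3 CPM in Bec_LPCs, 12.2 and 8.90 CPM in Hep_LPCs, and 7.74 and 7.47 CPM in NPC_LPCs, in 3 steps with no overlap. Lgr4 in Bec_LPCs against NPC_LPCs gave 1.02 ± 0.28 and was not called (edgeR adjusted p = 0.0676). It was called with DESeq2 (1.01, adjusted p = 0.0217), with library size alone (1.18, 0.0462), in a fit of those 4 libraries alone (1.01, 0.0372) and without Hep_LPCs replicate 1 or 2 (0.0411 and 0.0395). Against Hep_LPCs Lgr4 gave 0.54 ± 0.27 (edgeR adjusted p = 0.169), and Hep_LPCs against NPC_LPCs 0.46 ± 0.41 (0.546).

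Lgr6, the third receptor of this family and a member of the wider list of receptors, was highest in Bec_LPCs. Its levels were 78.5 and 94.9 CPM in Bec_LPCs, 18.8 and 21.7 CPM in NPC_LPCs, and 5.56 and 4.39 CPM in Hep_LPCs, with no overlap. Lgr6 rose in Bec_LPCs against Hep_LPCs by 4.12 ± 0.24 (edgeR adjusted p = 8.62e-04) and against NPC_LPCs by 2.10 ± 0.22 (0.00676). Per kilobase, Lgr6 stood above Lgr4 and Lgr5 in both Bec_LPCs libraries, at 11.5 and 13.8 CPM per kb against 2.46 and 2.77 of Lgr4 and 0.308 and 0.372 of Lgr5. On this scale Lgr6 was also the highest of the 3 in both NPC_LPCs libraries, at 2.75 and 3.16 CPM per kb. Lgr4 was there at 1.32 and 1.27 CPM per kb and Lgr5 at 2.05 and 0.243. The deposited FPKM instead put Lgr5 highest in NPC_LPCs replicate 1, at 4.80 FPKM against 2.03 of Lgr6 and 1.88 of Lgr4. In NPC_LPCs replicate 2 Lgr6 was highest on FPKM too, at 2.47 against 1.91 of Lgr4 and 0.617 of Lgr5. In Hep_LPCs replicate 1 the highest was Lgr5, at 3.95 CPM per kb against 2.08 of Lgr4 and 0.812 of Lgr6, and in Hep_LPCs replicate 2 it was Lgr4, at 1.51 against 0.757 and 0.641. Rspo3, the ligand of these receptors that had enough reads to be tested, was at 5.95 and 8.54 CPM in NPC_LPCs, 0.878 and 0.949 CPM in Hep_LPCs, and 0.169 and 0.257 CPM (4 and 6 reads) in Bec_LPCs. Rspo3 fell in Bec_LPCs against NPC_LPCs (-5.05 ± 0.56, edgeR adjusted p = 0.00819) and against Hep_LPCs (-2.07 ± 0.54, 0.0332).

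**Figure D2:**
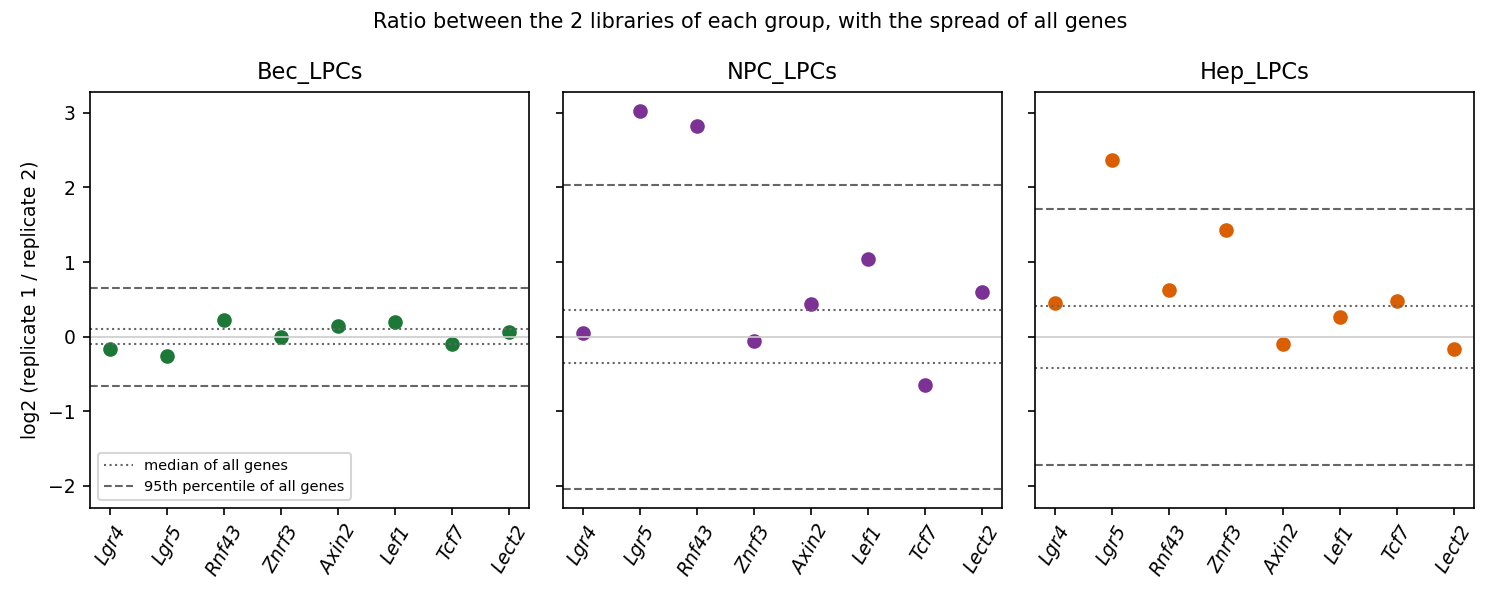
Log2 ratio of replicate 1 to replicate 2 for the 8 tested genes in each group, each count raised by 2 reads. Dotted lines give the median and dashed lines the 95th percentile of the absolute ratio over 12866 genes. Lgr5 lies beyond the dashed line in NPC_LPCs and Hep_LPCs, and Rnf43 in NPC_LPCs.

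Lgr5 had the replicates farthest apart of the 8 genes in both NPC_LPCs and Hep_LPCs. In NPC_LPCs, with 2 reads added to each count, Lgr5 was 8.15-fold and Rnf43 7.05-fold higher in replicate 1, and 2.08% and 2.42% of all genes past the filter were as far apart between these libraries. In Hep_LPCs Lgr5 was 5.15-fold higher in replicate 1, as far apart as 2.10% of genes, while Rnf43 differed 1.55-fold, as did 32.5% of genes. Znrf3 differed 2.68-fold between the Hep_LPCs libraries, as far apart as 7.98% of genes, and the other 5 tested genes there by 1.07-fold to 1.39-fold. In NPC_LPCs the 6 tested genes besides Lgr5 and Rnf43 differed by 1.04-fold to 2.05-fold, and in Bec_LPCs all 8 by 1.00-fold to 1.20-fold. Marker lists also differed between these libraries. The 7 bile duct markers were higher in replicate 1 of both groups, as Lgr5 and Rnf43 were, at 10005 and 4912 CPM in NPC_LPCs and 5031 and 2333 CPM in Hep_LPCs. In NPC_LPCs replicates 1 and 2 the summed level of 7 macrophage markers was 247 and 74.7 CPM, most of it Cd14 and Cd68 with Clec4f at 0 reads, and that of 5 mesothelial markers 645 and 239 CPM. In Hep_LPCs the macrophage markers were at 120 and 55.1 CPM and the mesothelial markers at 213 and 866 CPM. The Y-linked Ddx3y was at 60.4 and 0.0593 CPM in Hep_LPCs and at 89.3 and 72.7 CPM in NPC_LPCs. The part of any of these in the Lgr5, Rnf43 and Znrf3 levels was not tested.

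Axin2, a scaffold of the complex that destroys beta-catenin and the most widely used readout of the pathway, was highest in Hep_LPCs and lowest in Bec_LPCs. It lies on chromosome 11 (108920349 to 108950783, plus strand) and was at 51.3 and 55.1 CPM in Hep_LPCs, 47.8 and 35.2 CPM in NPC_LPCs, and 30.1 and 27.4 CPM in Bec_LPCs. The groups did not overlap, and replicates differed by 1.36-fold in NPC_LPCs, 1.10-fold in Bec_LPCs and 1.07-fold in Hep_LPCs. Axin2 fell in Bec_LPCs against Hep_LPCs (-0.89 ± 0.21, edgeR adjusted p = 0.0252). The call was lost without Bec_LPCs replicate 1 (edgeR adjusted p = 0.155) or 2 (0.200) and without Hep_LPCs replicate 1 (0.0531) or 2 (0.0601), at fold changes of -0.96 to -0.82. Bec_LPCs against NPC_LPCs gave -0.53 ± 0.21 (edgeR adjusted p = 0.147) and Hep_LPCs against NPC_LPCs 0.34 ± 0.27 (0.489), neither called. An antisense gene, Gm11670, overlaps 3.80% of the exonic length of Axin2, and whether the counting used strand is not in the labels, so their reads cannot be told apart if it did not.

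Nkd1, which binds Dishevelled, and Notum, an enzyme that removes the lipid from WNT ligands, were close to the detection limit and passed no count filter, so neither was tested. Nkd1 had 4 and 13 reads in Bec_LPCs (0.169 and 0.557 CPM) and 0 reads in all 4 other libraries. A count of 0 allows up to 3 reads, or 0.153 to 0.178 CPM in those libraries, so the lower Bec_LPCs library does not stand clear of that limit. Notum had 5 and 4 reads in Bec_LPCs, 1 and 5 in NPC_LPCs, and 4 and 4 in Hep_LPCs. No difference in Notum was detectable at this depth, and its exons overlap the antisense gene Notumos over 29.4% of their length and Myadml2os over 8.72%. These limits cover counting error only.

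Lef1 and Tcf7, DNA-binding partners of beta-catenin, had their lowest mean level in Bec_LPCs, where Tcf7 overlapped with NPC_LPCs. Tcf7 (chromosome 11, 52252371 to 52283014, minus strand) was at 26.0 and 18.7 CPM in Hep_LPCs, 10.4 and 16.4 CPM in NPC_LPCs, and 10.2 and 10.9 CPM in Bec_LPCs. Hep_LPCs stood above both other groups, which overlapped. Tcf7 fell in Bec_LPCs against Hep_LPCs (-1.09 ± 0.31, edgeR adjusted p = 0.0445). It lost that call with library size in place of TMM (-0.91, edgeR adjusted p = 0.0664), without Bec_LPCs replicate 1 (0.249) or 2 (0.211) and without Hep_LPCs replicate 1 (0.137). The other comparisons of Tcf7 were not called, at 0.72 ± 0.39 in Hep_LPCs against NPC_LPCs (edgeR adjusted p = 0.334) and -0.34 ± 0.31 in Bec_LPCs against NPC_LPCs (0.496), where the sign turned without NPC_LPCs replicate 2 (0.021).
Lef1 (chromosome 3, 131110471 to 131224356, plus strand) was at 3.10 and 2.55 CPM in Hep_LPCs, 3.64 and 1.73 CPM in NPC_LPCs, and 1.14 and 0.986 CPM in Bec_LPCs. Bec_LPCs, with 27 and 23 reads, stood below both other groups, which overlapped. Lef1 was not called against Hep_LPCs (-1.41 ± 0.56, edgeR adjusted p = 0.10) or NPC_LPCs (-1.33 ± 0.56, 0.170), though it was against Hep_LPCs in a fit of those 4 libraries alone (-1.42, edgeR adjusted p = 0.0488). Hep_LPCs against NPC_LPCs gave 0.06 ± 0.66 (edgeR adjusted p = 0.969). The antisense gene Gm43352 overlaps 13.7% of the exonic length of Lef1.

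**Figure D3:**
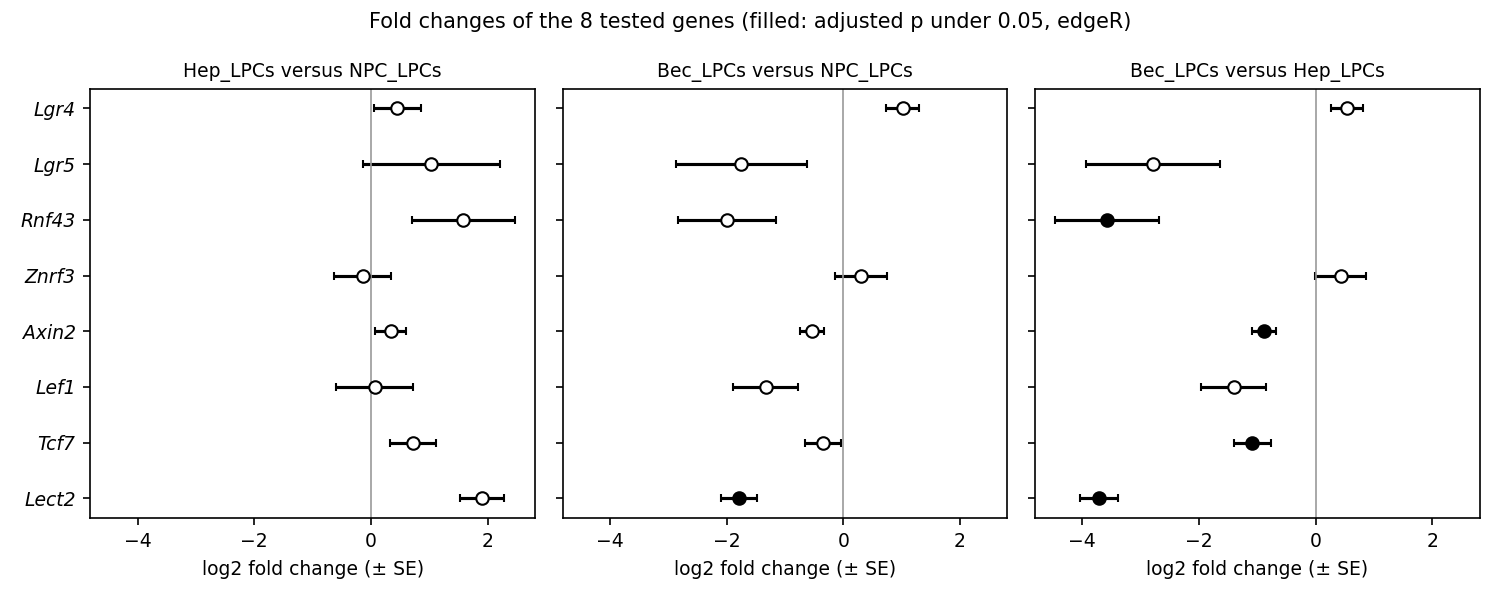
Log2 fold change ± SE of the 8 tested genes in the 3 comparisons. Filled points passed an edgeR adjusted p under 0.05, namely Lect2 in both Bec_LPCs comparisons and Axin2, Rnf43 and Tcf7 in Bec_LPCs against Hep_LPCs, all below 0.

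Across the set, 8 of the 10 genes passed the count filter of each comparison. Between Hep_LPCs and NPC_LPCs edgeR called 0 of them, where 0.795% of the 12331 genes tested were called (0.349% higher and 0.446% lower in Hep_LPCs). At an unadjusted p under 0.05 it was 1 of them, Lect2, beside 22.2% of all genes, and DESeq2 called 1, beside 12.3%, while limma-voom called 0. In Bec_LPCs against NPC_LPCs 1 was called, Lect2, which was lower, as were 6.45% of 12866 genes, with 4.89% higher and 11.3% in either direction. There 3 had an unadjusted p under 0.05, beside 31.5% of all genes, and DESeq2 called 3, beside 22.5%. In Bec_LPCs against Hep_LPCs 4 were called, all lower, where 17.2% of all genes were lower, 16.1% higher and 33.4% called in either direction. There 5 had an unadjusted p under 0.05, beside 47.3% of all genes, and DESeq2 called 5, beside 42%. The libraries did not overlap for 5 of the 8 genes in Hep_LPCs against NPC_LPCs, all higher in Hep_LPCs (28.8% of all genes were higher in this way and 27.7% lower). In Bec_LPCs against NPC_LPCs they did not for 2 genes that were higher (37% of all genes) and 3 that were lower (33%), and in Bec_LPCs against Hep_LPCs for 1 higher (40.8%) and 6 lower (36.8%). The median log2 fold change of the tested genes was 0.59 in Hep_LPCs against NPC_LPCs, -0.93 in Bec_LPCs against NPC_LPCs and -1.25 in Bec_LPCs against Hep_LPCs, beside 0.00, 0.01 and 0.03 for all genes. With library size in place of TMM the share of calls over all genes that were higher in Bec_LPCs went from 43.1% to 61.3% against NPC_LPCs and from 48.3% to 60.9% against Hep_LPCs, and the median of all genes from 0.01 to 0.17 and from 0.03 to 0.21. On FPKM the share of calls higher in Hep_LPCs than in NPC_LPCs went from 43.9% to 56.1%. Leaving out either Bec_LPCs library also lowered the calls over all genes in both Bec_LPCs comparisons. The calls of the 10 genes lost in those fits are therefore not particular to them. The 3 comparisons share groups and are not independent of each other. The Bec_LPCs tables also differ in layout from the others, so how the tables were counted cannot be told apart from the group. The summed stellate and fibroblast markers stood highest in Bec_LPCs, where most of the sum was Acta2 (77.6 and 94.1 CPM) and Col1a1 (63.7 and 76.9 CPM). Reln of that list was not highest there, at 7.30 and 4.33 CPM against 9.25 and 5.70 CPM in Hep_LPCs. The part of these markers in the differences was not tested.

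Of 108 other genes of the pathway in 8 lists, edgeR called 0 of 77 tested between Hep_LPCs and NPC_LPCs (0.795% of all genes), while DESeq2 called 16 (12.3% of all genes) and limma-voom 0. With no adjustment, 13 had p under 0.05 and were higher in Hep_LPCs and 12 lower, beside 22.2% of all genes in either direction. In Bec_LPCs 10 of 83 were called higher and 6 lower against NPC_LPCs, and 19 higher and 11 lower against Hep_LPCs, where 4.89% and 6.45%, and 16.1% and 17.2%, of all genes were. Against NPC_LPCs fewer than the 16 were called without either Bec_LPCs library or without NPC_LPCs replicate 1. Against Hep_LPCs fewer than the 30 were called without either Bec_LPCs library. Calls over all genes fell too in each of these fits, which leave 1 library in a group. Of the 16 and 30 called genes, 10 and 23 share no more than 25% of their exonic length with another coding gene and have no near-identical stretch in another annotated gene. Of the genes named below, Wnt5a, Wnt11, Rspo3, Gsk3a, Ctnnb1, Bcl9l, Fosl1, Sox4, Ccnd1 and Glul have such a stretch, and their values are uncertain where reads could be split.

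**Figure D4:**
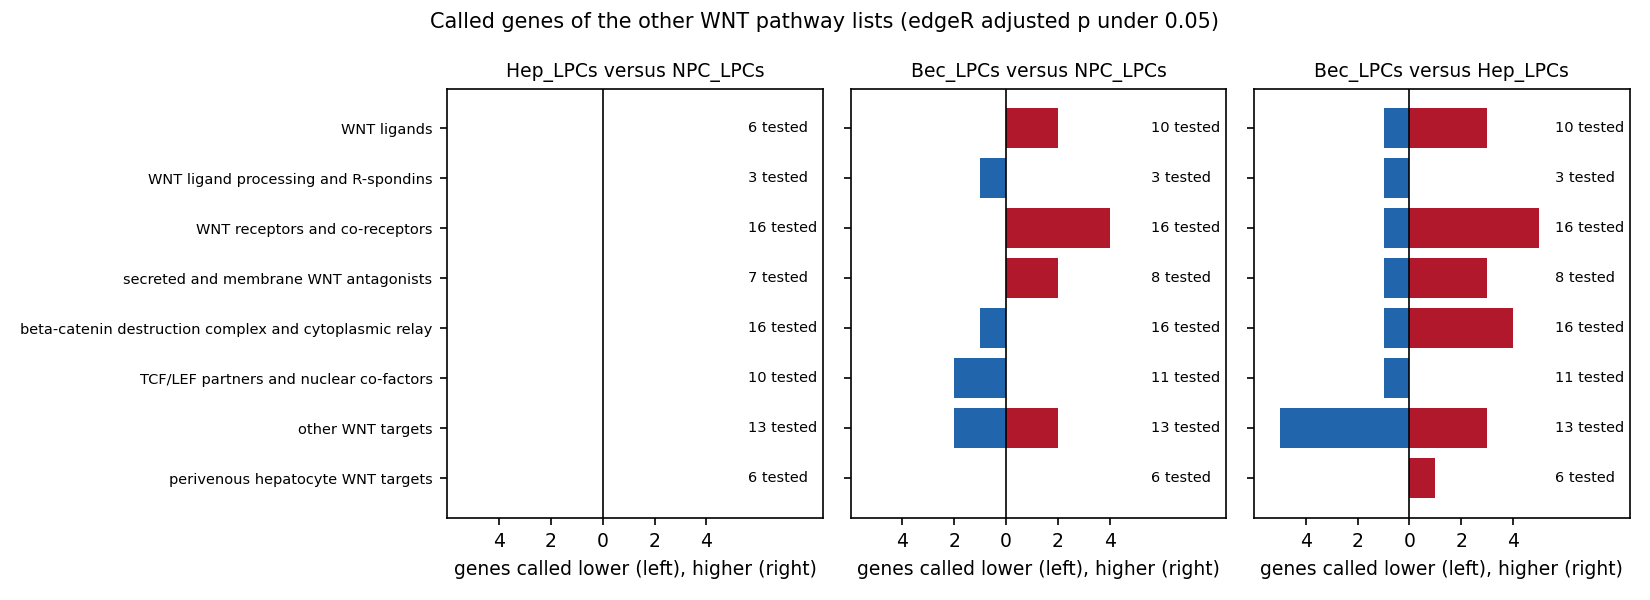
Number of genes called lower (to the left, blue) and higher (to the right, red) in the first-named group for 8 lists of other WNT pathway genes, with the number tested in each list. No bar appears for Hep_LPCs against NPC_LPCs, and the receptor list has 4 and 5 genes higher in Bec_LPCs.

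Of 16 receptors tested, 4 were called in Bec_LPCs against NPC_LPCs, all higher (median 0.54), beside 11.3% of all genes in either direction. Against Hep_LPCs 5 were higher and 1 lower (median 0.47), beside 33.4% of all genes. Fzd3, a Frizzled receptor, was at 30.1 and 31.1 CPM in Bec_LPCs, 7.28 and 9.30 CPM in NPC_LPCs, and 2.63 and 3.09 CPM in Hep_LPCs, and rose against both (NPC_LPCs first, 1.88 ± 0.25, edgeR adjusted p = 0.0138, and 3.42 ± 0.27, 0.00180). Fzd4 rose by 2.12 ± 0.32 against NPC_LPCs (edgeR adjusted p = 0.0184) and by 1.85 ± 0.31 against Hep_LPCs (0.0108). Fzd7 was the receptor that fell against Hep_LPCs (-1.27 ± 0.18, edgeR adjusted p = 0.00660). The co-receptors Lrp5 and Lrp6, those with the most reads, were at 125 and 171 CPM on average in Bec_LPCs, 187 and 119 CPM in Hep_LPCs, and 180 and 149 CPM in NPC_LPCs, and were not called.

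Among 19 ligands, 10 were tested in the Bec_LPCs comparisons. Against NPC_LPCs 2 were called higher (median 1.25), beside 11.3% of all genes called in either direction. Against Hep_LPCs 3 were higher and 1 lower (median 1.49), beside 33.4% of all genes. Wnt5a, which mostly signals without beta-catenin, was at 80.7 and 83.9 CPM in Bec_LPCs, 20.8 and 48.0 CPM in NPC_LPCs, and 7.49 and 12.6 CPM in Hep_LPCs, and rose against Hep_LPCs (3.04 ± 0.47, edgeR adjusted p = 0.00865). Wnt9a rose against both other groups (NPC_LPCs first, 1.71 ± 0.34, edgeR adjusted p = 0.0358, and 1.21 ± 0.34, 0.0405), as did Wnt11, at 1.60 and 1.97 CPM against 0.102 CPM or less (edgeR adjusted p = 0.0474 against NPC_LPCs and 0.0208 against Hep_LPCs). Wnt10a went the other way. It was at 50.7 and 55.6 CPM in Hep_LPCs, 14.6 and 0.254 CPM in NPC_LPCs, and 0.464 and 0.386 CPM in Bec_LPCs, and fell in Bec_LPCs against Hep_LPCs (-6.94 ± 1.68, edgeR adjusted p = 0.0274). Wnt7b, the ligand with the most reads, was at 121 and 129 CPM in Bec_LPCs and was not called against NPC_LPCs (edgeR adjusted p = 0.298) or Hep_LPCs (0.136). Of the list of ligand processing and R-spondins 3 were tested in each comparison, with Rspo3 called as given above and Wls and Porcn, which carry and lipidate WNT ligands, not called.

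Antagonists were called higher in 2 of 8 tested against NPC_LPCs (median 0.73), where 11.3% of all genes were called in either direction. Against Hep_LPCs 3 were higher and 1 lower (median 1.40), where 33.4% of all genes were called. Dkk2, which binds the co-receptors, was at 7.72 and 8.40 CPM in Bec_LPCs, 0.635 and 1.02 CPM in NPC_LPCs, and 0.819 and 2.37 CPM in Hep_LPCs, and rose against both (NPC_LPCs first, 3.27 ± 0.65, edgeR adjusted p = 0.0345, and 2.33 ± 0.61, 0.0346). Trabd2b, a protease that inactivates WNT ligands, rose by 2.99 ± 0.52 against NPC_LPCs (edgeR adjusted p = 0.0251) and by 2.46 ± 0.50 against Hep_LPCs (0.0170). Kremen1, a receptor of Dickkopf proteins and the antagonist with the most reads, rose against Hep_LPCs (1.38 ± 0.28, edgeR adjusted p = 0.0171), where Apcdd1, a membrane inhibitor, fell (-1.43 ± 0.43, 0.0491). Sfrp1, next by reads, was not called.

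In the cytoplasm, 1 of 16 genes of the destruction complex and relay was called lower against NPC_LPCs (median 0.10). Against Hep_LPCs 4 were higher and 1 lower (median 0.39). Of all genes 11.3% were called against NPC_LPCs and 33.4% against Hep_LPCs, and the list exceeded neither share. Gsk3a, a kinase of the complex, was the lower gene in both (NPC_LPCs first, -1.85 ± 0.19, edgeR adjusted p = 0.00597, and -1.93 ± 0.19, 0.00279), and its transcript shares a near-identical stretch with 9130221H12Rik. Tnks, which marks Axin proteins for removal, rose against Hep_LPCs (1.91 ± 0.35, edgeR adjusted p = 0.0130), as did Amer1 (1.63 ± 0.28, 0.0115) and Fbxw11 (0.73 ± 0.17, 0.0231). Ctnnb1, beta-catenin itself, was at 944 to 1001 CPM in Bec_LPCs, 910 to 1044 CPM in NPC_LPCs and 742 to 774 CPM in Hep_LPCs and was not called, with 14.6% of its exonic length shared with Ulk4. Tnks2 was not called either. Of 11 nuclear partners 2 were lower against NPC_LPCs (median -0.30), Bcl9 and Bcl9l, which bind beta-catenin (-0.86 ± 0.19 and -1.31 ± 0.29, edgeR adjusted p = 0.0444 each). Against Hep_LPCs 1 was lower (median 0.45), Tcf7l2, a TCF family member (-1.47 ± 0.33, edgeR adjusted p = 0.0216), and Tle3 was called in neither.

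Other WNT targets split in direction. Of 13 tested, 2 were called higher and 2 lower in Bec_LPCs against NPC_LPCs (median -0.24), beside 11.3% of all genes called. Against Hep_LPCs 3 were higher and 5 lower (median -0.63), beside 33.4% of all genes. Bmp4, a BMP ligand, was at 47.1 and 44.1 CPM in Hep_LPCs, 14.0 and 16.0 CPM in NPC_LPCs, and 8.14 and 5.44 CPM in Bec_LPCs, and fell against both (Hep_LPCs first, -2.75 ± 0.27, edgeR adjusted p = 0.00295, and -1.14 ± 0.26, 0.0468). Fosl1, an AP-1 subunit, fell against both (Hep_LPCs first, -4.54 ± 0.18, edgeR adjusted p = 2.94e-04, and -3.01 ± 0.17, 0.00111), but 57.2% of its exonic length overlaps the coding gene Ccdc85b. Sox4, a transcription factor, rose against both (Hep_LPCs first, 1.59 ± 0.17, edgeR adjusted p = 0.00328, and 1.29 ± 0.16, 0.0123), and Cd44, a hyaluronan receptor, against Hep_LPCs (1.49 ± 0.18, 0.00467). Ccnd1, cyclin D1 and the target with the most reads, was at 1766 to 1785 CPM in Bec_LPCs, 1478 to 1609 CPM in NPC_LPCs and 2545 to 2940 CPM in Hep_LPCs, and its fall against Hep_LPCs (-0.63, edgeR adjusted p = 0.0368) comes with 23.4% overlap with the gene LTO1.

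Of the 10 targets of the pathway in perivenous hepatocytes, 6 passed the count filter and 1 was called in any comparison. The called gene was Slc1a2, a glutamate transporter, higher in Bec_LPCs than in Hep_LPCs (2.16 ± 0.41, edgeR adjusted p = 0.0143). The list had a median of -1.13 there, and 33.4% of all genes were called in either direction. Glul, the glutamine synthetase of these hepatocytes, was at 368 and 159 CPM in Hep_LPCs, 210 and 90.3 CPM in NPC_LPCs, and 98.0 and 86.3 CPM in Bec_LPCs, and was not called against Hep_LPCs (-1.51 ± 0.53, edgeR adjusted p = 0.0710) or NPC_LPCs (-0.71 ± 0.52, 0.396). Oat, the other gene of the list with the most reads, was not called.

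For each of the 8 tested genes the 2 genes closest in pattern were sought among 12866, by the root-mean-square difference of centred log2 CPM over the 6 libraries. Axin2 was closest to Washc5 (0.05) and Slc25a13 (0.07), Lgr4 to Spopl (0.06) and Micu3 (0.08), and Tcf7 to Tsr2 and Lsm6 (0.07 each). Lef1 was closest to Ildr2 (0.08) and Ksr1 (0.13), Znrf3 to Rprd1a (0.11) and Yeats2 (0.13), and Lect2 to Gsdmd (0.15) and Car12 (0.18). The patterns of Rnf43, closest to Apon (0.25) and Prdm1 (0.30), and of Lgr5, closest to Amph (0.21) and Ugt2b5 (0.34), had less close neighbours. Those neighbours had few reads per library, 2 to 84 for Apon, 0 to 23 for Prdm1, 3 to 60 for Amph and 1 to 24 for Ugt2b5. Their patterns are uncertain for that reason. These likenesses are a description.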

How the data were processed

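RNA of the 6 libraries was prepared with a stranded mRNA kit, per the labels' protocols. Trimmomatic, HISAT2, Cufflinks, HTSeq, DESeq and the build mm10 are named, with no role or order, per the submitters' processing notes, with settings not given in the sources used here. For each library the authors deposited whole-number counts per gene symbol and, for NPC_LPCs and Hep_LPCs, FPKM. Rows without a name (14 in each Bec_LPCs table, up to 0.000191% of the counts) were left out. Older symbols were updated with RefSeq synonyms (16 per Bec_LPCs table and 836 per other table), and the shared genes then held 95.3% to 99.4% of the counts. Coordinates and exonic lengths are from GENCODE M21 on mm10, 1-based. None of the 10 genes shares exonic sequence with another protein-coding gene.

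The comparison of Hep_LPCs with NPC_LPCs used those 4 libraries, and both comparisons of Bec_LPCs used all 6, by edgeR's quasi-likelihood test after filterByExpr and TMM (edgeR 4.0.16, limma 3.58.1, DESeq2 1.42.0, R 4.3.3). Checked on simulated data with 200 changed genes, the fits called 60.9% of 4-fold and 89.8% of 8-fold changes for Hep_LPCs against NPC_LPCs (12141 genes), 85.9% and 95.0% for Bec_LPCs against NPC_LPCs (12613 genes), and 76.9% and 96.7% for Bec_LPCs against Hep_LPCs (12620 genes). The fits also called 12, 9 and 22 genes that had been left unchanged, in the same order of comparisons. The changed genes were drawn above a minimum mean level, which Lef1 did not reach. Each simulated gene had the same spread in every group, while the real groups differed in spread. The shares called therefore need not hold for each of the genes described here. The genes and lists were chosen with earlier results of these data known. Named pathway genes were, per list, up to 4 called genes of smallest adjusted p and the 2 of highest mean CPM. Alternatives were other scalings, filters, tests, fits, FPKM with a pseudocount of 1, a replicate block and each library left out.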

Additional observations from a re-analysis of the deposited data

How the results depend on the processing

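Of 219 fold changes of the tested genes under other scalings, filters, tests and fits, 219 kept their direction, and of 128 with a library left out, 121 did. The 7 that turned were not called. In Hep_LPCs against NPC_LPCs these were Lef1 without NPC_LPCs replicate 2 (-0.36) and without Hep_LPCs replicate 1 (-0.07), Lgr5 without Hep_LPCs replicate 1 (-0.59) and Znrf3 without Hep_LPCs replicate 2 (0.40), within ranges of -0.36 to 0.69 for Lef1, -0.59 to 3.25 for Lgr5 and -1.01 to 0.40 for Znrf3. In Bec_LPCs against NPC_LPCs they were Lgr5 without NPC_LPCs replicate 1 (0.44) and Tcf7 without NPC_LPCs replicate 2 (0.021), within ranges of -2.59 to 0.44 and -0.68 to 0.021, and in Bec_LPCs against Hep_LPCs Znrf3 without Hep_LPCs replicate 2 (-0.12, with a highest value of 1.31). In Hep_LPCs against NPC_LPCs the count of the 10 genes called went from 0 to 1 (Lect2) with no low-count filter, with DESeq2's Wald test, in the fit of 6 libraries and with limma on log2(FPKM + 1), and the count of pathway list genes called from 0 to 8 with no low-count filter, 2 with 10 CPM in 2 libraries, 16 with DESeq2's Wald test and 13 in the fit of 6 libraries. In Bec_LPCs against NPC_LPCs the count of the 10 genes called went from 1 to 2 with library size alone, 3 with DESeq2's Wald test and 2 in the fit of 4 libraries, and the pathway count from 16 to 25 with DESeq2's Wald test. With a library left out the counts of the 10 genes and of the pathway list genes were 0 to 1 and 0 to 3 in Hep_LPCs against NPC_LPCs, 0 to 2 and 1 to 23 in Bec_LPCs against NPC_LPCs, and 1 to 4 and 8 to 36 in Bec_LPCs against Hep_LPCs. The cause of these shifts was not tested.

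Other scalings moved no group mean of the 10 genes by more than 1.08-fold. Calls over all genes in Hep_LPCs against NPC_LPCs were 98, but 515 with no filter, 172 with 10 CPM in 2 libraries, 1517 by DESeq2, 5 by limma-voom, 1274 in the fit of 6, 212 on FPKM and 0 to 361 with a library left out. In Bec_LPCs against NPC_LPCs they were 1459, but 2897 by DESeq2, 2491 in the fit of 4, 770 with a replicate block and 115 to 2363 with a library left out, and in Bec_LPCs against Hep_LPCs 4292, but 491 to 4907 with a library left out. Same-numbered replicates did not deviate together (correlations of deviations 0.09, -0.04 and -0.01), so the numbers are not taken to pair the libraries. With a replicate block 0 of the 10 genes were called in Hep_LPCs against NPC_LPCs, 0 in Bec_LPCs against NPC_LPCs (Lect2 -1.78, edgeR adjusted p = 0.0502) and 3 in Bec_LPCs against Hep_LPCs (without Tcf7, -1.09, 0.0702). Depth limits Nkd1, Notum and, in Bec_LPCs, Lef1 most.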
